A study of Mus musculus with 10 samples.

Results

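Retinoid signalling and metabolism was followed through 9 genes in lung squamous cell carcinoma (SCC) of the mouse: the plasma carrier Rbp4, its membrane receptor Stra6, the intracellular retinoic acid binding protein Crabp2, the retinal reductase Dhrs3, the retinal dehydrogenase Aldh1a1, and the nuclear receptors Rara, Rarb, Rarg and Rxra. They were chosen by name, among the 19096 genes to which a probe of the array could be matched. Each gene was read from the probe with the highest mean over the 10 arrays, and the 9 genes had 13 probes in all.

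Retinol travels in blood on retinol-binding protein, enters cells through membrane receptors, and is held there by small binding proteins or stored as retinyl esters. Oxidation to retinal is reversible, whereas retinal dehydrogenases make retinoic acid irreversibly and CYP26 hydroxylases break it down. Retinoic acid acts through retinoic acid receptors paired with retinoid X receptors on response elements in DNA, and lack of vitamin A is a classic setting for replacement of mucociliary airway epithelium by squamous epithelium.

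The arrays compared 5 whole lungs of wild type (WT) mice, genotype Lkb1f/f, with 5 whole lung tumours, called SCC by title, of CCSPiCreLkb1f/f mice. All mice were untreated, labelled as strain B6.129 and 13 months old, and every group carried the floxed Lkb1 alleles, so the groups differed in the Cre transgene and in tissue. CCSPiCre expresses Cre recombinase from the promoter of the club cell secretory protein, in airway epithelium, and the study's methods count replicates as biological. Each sample was hybridised to 1 single-colour Agilent array. Slide 1 of 3 held only WT arrays (replicates 1 to 4) and slide 3 only tumours (replicates 4 and 5). Slide 2 held the remaining 4 arrays, 1 WT lung (replicate 5) with tumours 1 to 3, so that it alone separates slide from group.

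On the arrays, 71.0 to 74.4% of probes were well above background, except for SCC replicate 5 with 90.2%. Krt5, a keratin of basal and squamous cells, had a log2 intensity of 5.29 to 6.63 in WT and 15.60 to 17.70 in SCC, and Trp63, the transcription factor of basal cells, 4.97 to 6.0 in WT and 12.13 to 13.45 in SCC. The mean of 9 squamous markers was 15.05 to 15.40 on 4 SCC arrays and 11.84 on SCC replicate 2, which was also the lowest SCC array for 72.2% of the 1803 genes called higher in SCC. No probe was matched to Lkb1 itself, so its deletion was not analysed here.

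Of the 9 retinoid genes, Crabp2 and Stra6 were higher in SCC and Aldh1a1 was lower, while 6 did not pass. A gene was called at a Benjamini-Hochberg adjusted p below 0.05 in limma over 30374 tested probes together with an at least 2-fold difference. With 1 probe per gene, 24.9% of 15586 genes were called, 11.6% higher and 13.4% lower, so 3 of 9 was near the background. Crabp2 entered the test through its SCC arrays alone, and among probes well above background on all 10 arrays 2 of the 7 genes still tested, Stra6 and Aldh1a1, were called, against 19.9% of 26551 probes. Over all probes, without choosing 1 per gene, 22.9% were called, 9.92% higher and 13.0% lower. Without the fold requirement 5 of the 9 passed, 4 higher and 1 lower, against 53.9% of all genes and 49.0% of all probes. The groups did not overlap for 3 of the 9 genes, against 41.4% of all genes and 37.4% of all probes, and the median difference of the 9 was 0.44 on the log2 scale, against -0.038 for all genes.

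**Figure D1:**
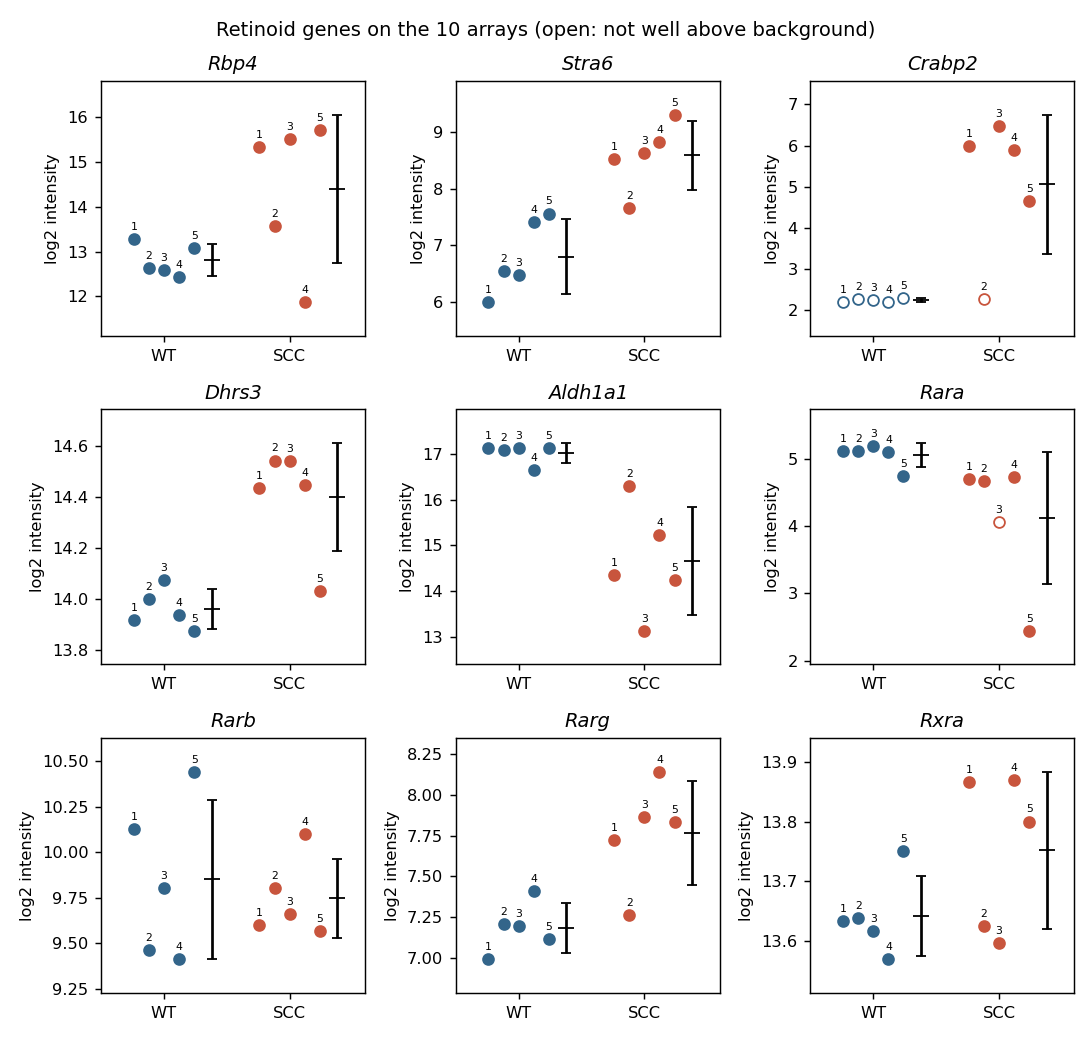
Log2 quantile-normalized intensity (vertical axes, with a range of its own in each panel) of the 9 retinoid genes on 5 WT and 5 SCC arrays. Points are arrays with their replicate number, open points are not well above background, and bars give the mean with its SD. Stra6 is higher and Aldh1a1 lower on every SCC array than on every WT array, while the Rbp4 array of SCC replicate 4 lies below all WT arrays.

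Rbp4, the carrier of retinol in plasma, was bright in every sample and much more variable among tumours. Its log2 intensity was 13.28, 12.64, 12.59, 12.44 and 13.07 in WT replicates 1 to 5. In SCC replicates 1 to 5 it was 15.33, 13.57, 15.51, 11.87 and 15.72. Thus 4 tumours lay above every WT lung and SCC replicate 4 lay below every one. The difference of 1.6 (SE 0.69, adjusted p = 0.0793) did not pass, and the exact two-sided permutation test gave p = 0.103. Without SCC replicate 4 the difference was 2.23 with an adjusted p of 0.00338, which made it a call. Ttr, transthyretin, which binds retinol-binding protein in blood, was well above background on 1 array, SCC replicate 5, and was not tested.

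The lungs and tumours were whole tissues, in which fewer cells of a type and less RNA per cell cannot be told apart. Adipocytes and hepatocytes are known sources of Rbp4. The 7 tested adipocyte markers had a mean of 7.95 to 10.16 in WT and 6.53 to 7.43 in SCC, with 6 called lower and Cidea called higher. Of 7 hepatocyte markers 4 could be tested, with a mean of 6.74 to 7.18 in WT and 6.85 to 8.69 in SCC and 1 called higher. The hepatocyte mean was highest on SCC replicate 2, at 8.69, followed by SCC replicate 5, at 8.18. SCC replicate 5 was the array highest for Rbp4, and SCC replicate 2 was not among the 3 highest. Their part in the Rbp4 values was not tested.

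Stra6, the receptor that takes up retinol from retinol-binding protein, was higher in the tumours. WT replicates 1 to 5 read 5.99, 6.55, 6.48, 7.41 and 7.56 for Stra6 on the log2 scale. SCC replicates 1 to 5 read 8.52, 7.65, 8.63, 8.82 and 9.31. No tumour overlapped a WT lung, although SCC replicate 2 lay only just above WT replicate 5. The Stra6 mean rose 3.46-fold, from 6.80 ± 0.66 to 8.59 ± 0.60 (SD, n = 5 arrays in each group). The limma difference was 1.79 (SE 0.37, adjusted p = 0.00302, exact permutation p = 0.00794). On slide 2, where WT replicate 5 was the single WT array, the Stra6 difference was 0.71, and the fit with a fixed slide block gave an adjusted p of 0.438.

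Stra6l, a related membrane receptor for retinol-binding protein, moved the same way. It ranged from 8.85 to 10.05 in WT with a median of 9.94, and from 9.43 to 12.38 in SCC with a median of 12.32, a difference of 2.09 (SE 0.56, adjusted p = 0.0122). SCC replicate 2 alone lay within the WT range. With the slide block the difference was 2.53 with a larger SE of 1.02, and the call was lost (adjusted p = 0.141). A second Stra6l probe gave 1.94 (adjusted p = 0.0103).

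Crabp2, which carries retinoic acid to its receptors in the nucleus, was detected in tumours and not in WT lungs. Its log2 intensity was 2.19, 2.27, 2.25, 2.19 and 2.28 in WT replicates 1 to 5, none well above background. SCC replicates 1 to 5 had 6.0, 2.26, 6.46, 5.88 and 4.66, and all but SCC replicate 2 were well above background. Its probe passed the filter through the SCC arrays alone, so the WT arrays give only a bound and a difference was built into its test. Crabp2 was at least 2.02-fold higher in SCC, setting the mean of the 5 tumours against the dimmest probes that were well above background on each WT array. This bound was not tested. Without SCC replicate 2 the bound was 3.27-fold. Without SCC replicate 3, the brightest tumour, the bound fell under 2-fold and the measured difference was 2.46. The measured means differed by 2.82, a value set by WT intensities at background, and by 0.54 after normexp background correction. With the slide block they differed by 2.63 (adjusted p = 0.246).

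Among the related binding proteins, Rbp2 and Rbp7, which bind retinol inside cells, were called higher in SCC, whereas Crabp1, the other retinoic acid binding protein, differed by -0.26 (adjusted p = 0.293). Rbp2, best known from the intestine, ranged from 3.94 to 4.32 in WT, where 3 of 5 arrays were well above background, and from 5.75 to 9.03 in SCC. Its probe therefore passed the filter through the SCC arrays alone. Its difference was 3.85 (SE 0.53, adjusted p = 0.000284), and with the slide block it was 3.64 with a larger SE of 1.04, and the call was lost (adjusted p = 0.0584). A second Rbp2 probe had no WT array well above background and was at least 23.2-fold higher in SCC. These Rbp2 groups did not overlap, and SCC replicate 2 was again the lowest tumour.

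Rbp7 rose by 2.02 (SE 0.32, adjusted p = 0.000644), from a median of 7.66 in WT to 9.79 in SCC, with no overlap.

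Lrat, which esterifies retinol for storage, was lower in all tumours, with little spread in either group. It ranged from 11.96 to 12.33 in WT and from 10.01 to 10.26 in SCC. The difference was -2.0 on each of its 2 probes (SE 0.098 and 0.18, adjusted p = 1.19e-06 and 3.12e-05). With the slide block it was -1.98 and remained a call (adjusted p = 0.00273).

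The enzymes that interconvert retinol and retinal split by gene. Of 6 tested retinol dehydrogenases 3 were called higher, namely Rdh10, Dhrs9 and Adh7. Rdh10, the main enzyme of the first oxidation step in embryos, rose by 2.41 (SE 0.13, adjusted p = 2.13e-06), from 9.28 to 9.64 in WT to 11.51 to 12.16 in SCC. Its second probe rose by 1.82 and the call held with the slide block (2.15, adjusted p = 0.00387).

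Dhrs9 was not well above background in WT but was so on 4 SCC arrays, so its probe too passed the filter through the tumours alone. It was at least 3.03-fold higher there, or at least 6.08-fold without SCC replicate 2, and the bound was lower without SCC replicate 1, 3 or 4. The limma adjusted p of 0.00645 belongs to the measured difference of 4.03. With the slide block that difference was 3.66 and the call was lost. As for Crabp2, SCC replicate 2 was the tumour without signal, at 1.61 against 5.46 to 7.33 on the other tumours. Adh7, an alcohol dehydrogenase of upper digestive epithelium that can oxidise retinol, rose by 2.27 (SE 0.46, adjusted p = 0.00276) without overlap. On slide 2 Adh7 differed by 0.70 (adjusted p = 0.492 with the block). Rdh5, a retinol dehydrogenase known from the retinal pigment epithelium, was lower by less than 2-fold, at -0.60 (adjusted p = 0.00526).

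Dhrs3 reduces retinal back to retinol and is itself known to be induced by retinoic acid. It read 13.92, 14.00, 14.07, 13.94 and 13.88 in WT replicates 1 to 5. It read 14.43, 14.54, 14.54, 14.45 and 14.03 in SCC replicates 1 to 5. All tumours but one lay well above the WT lungs, and SCC replicate 5 lay among them. The difference of 0.44 (SE 0.11, adjusted p = 0.00932, exact permutation p = 0.0159) corresponded to 1.35-fold and was not a call.

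The second Dhrs3 probe gave 0.63 (adjusted p = 0.000314) with no overlap, also below 2-fold. None of the 6 tested retinal reductases was called in limma. On adjusted p alone 5 passed, against 53.9% of all genes. All 6 had an unadjusted p below 0.05, as had at least that share of all genes. Rdh12, known from photoreceptors, had the smallest adjusted p of the others, at 0.88 (SE 0.12, adjusted p = 0.000355).

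Aldh1a1, which oxidises retinal to retinoic acid, was lower in every tumour. WT replicates 1 to 5 read 17.13, 17.09, 17.13, 16.65 and 17.15. SCC replicates 1 to 5 read 14.35, 16.30, 13.13, 15.23 and 14.25. Even the highest tumour, SCC replicate 2, lay below the lowest WT lung, and the tumours spread over 3.17 log2 units against 0.50 in WT.

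The Aldh1a1 mean fell 5.20-fold, from 17.03 ± 0.21 to 14.65 ± 1.19 (SD, n = 5 arrays in each group). The limma difference was -2.38 (SE 0.49, adjusted p = 0.0031). The exact permutation test gave p = 0.00794, the smallest that 252 splits of 10 arrays allow. On slide 2 the difference was larger, -2.56, but with 1 WT array the test with the slide block did not pass (adjusted p = 0.133).

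Aldh1a1 is known as a gene of club cells in the mouse airway. Scgb1a1, the club cell secretory protein, ranged from 18.45 to 18.58 in WT and from 15.90 to 18.01 in SCC. The mean of 7 club cell markers was 15.09 to 15.66 in WT, and 14.52, 16.03, 13.54, 14.72 and 14.62 in SCC replicates 1 to 5, with 3 of 7 called lower. SCC replicate 2 was the highest and SCC replicate 3 the lowest tumour for both Aldh1a1 and this mean. The ciliated cell mean was 11.29 to 12.58 in WT and 9.48 to 11.71 in SCC, with 4 of 7 called lower. Their part in the Aldh1a1 difference was not tested.

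**Figure D2:**
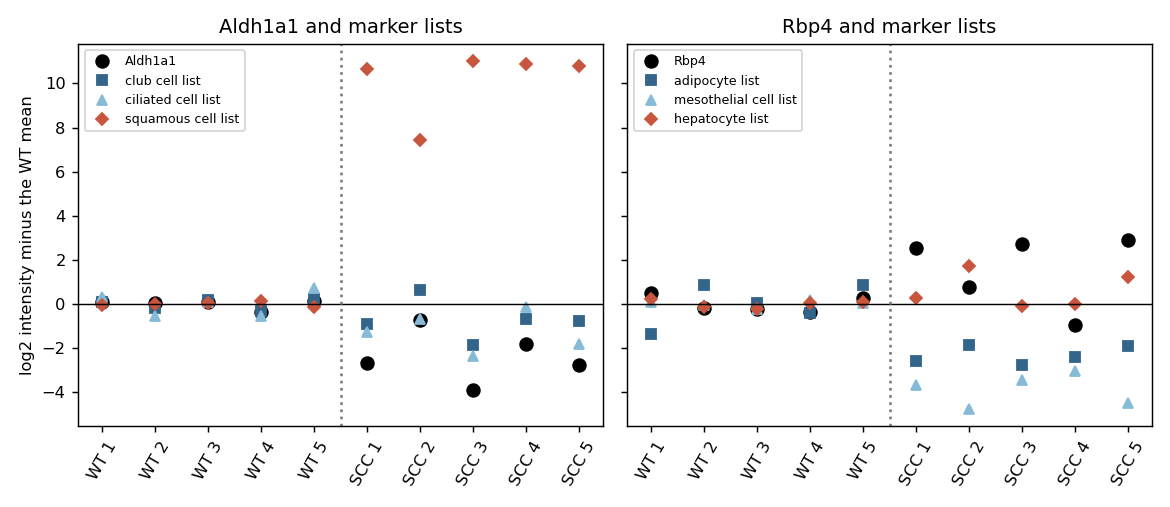
Log2 intensity minus the WT mean on each array for Aldh1a1 (left) and Rbp4 (right), beside the mean of marker lists of other cell types, as named in the legends. Among the tumours, replicate 2 is the highest and replicate 3 the lowest for both Aldh1a1 and the club cell list, while Rbp4 is above the WT mean on 4 tumours that are all below it for the adipocyte list.

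The other retinal dehydrogenases did not move together. Aldh1a3, an enzyme of the same step found in several epithelia, had the largest difference of the retinoid genes tested: 6.51, 7.45, 7.12, 6.54 and 6.91 in WT replicates 1 to 5. In SCC replicates 1 to 5 it read 13.94, 10.37, 14.67, 14.85 and 14.69. Every tumour was above every WT lung, with SCC replicate 2 well below the other tumours. The difference was 6.80 (SE 0.79, adjusted p = 0.000106), or 111-fold (198-fold without SCC replicate 2), and remained a call with the slide block (6.08, adjusted p = 0.03).

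Aldh1a2, known from mesothelium and embryonic mesoderm, went the other way. It read 11.93, 11.57, 11.40, 11.98 and 11.52 in WT replicates 1 to 5. It read 9.37, 8.65, 9.52, 9.26 and 9.64 in SCC replicates 1 to 5. The groups were far apart, with a difference of -2.39 (SE 0.20, adjusted p = 1.79e-05) that held with the slide block (-2.34, adjusted p = 0.0115). The mean of 6 mesothelial markers was 10.80 to 11.18 in WT and 6.25 to 7.98 in SCC, with 5 of 6 called lower. On SCC replicate 2, the array lowest for Aldh1a2, Upk3b, Wt1 and Lrrn4 were not well above background, while Msln and Gpm6a were at their highest among the tumours. The part of mesothelial cells in the Aldh1a2 difference was not tested.

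Aldh1a7 was listed as a close relative of Aldh1a1 that may share its probe signal, and whether it acts on retinal was not examined. It differed by 0.34 (adjusted p = 0.14), from 13.41 to 14.17 in WT and from 13.89 to 14.66 in SCC. Of the 5 tested genes listed under retinal dehydrogenases, Aldh1a7 included, 1 was therefore higher, 2 were lower and 2 did not pass. Levels of different genes were not compared, since array intensities depend on the probe.

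**Figure D3:**
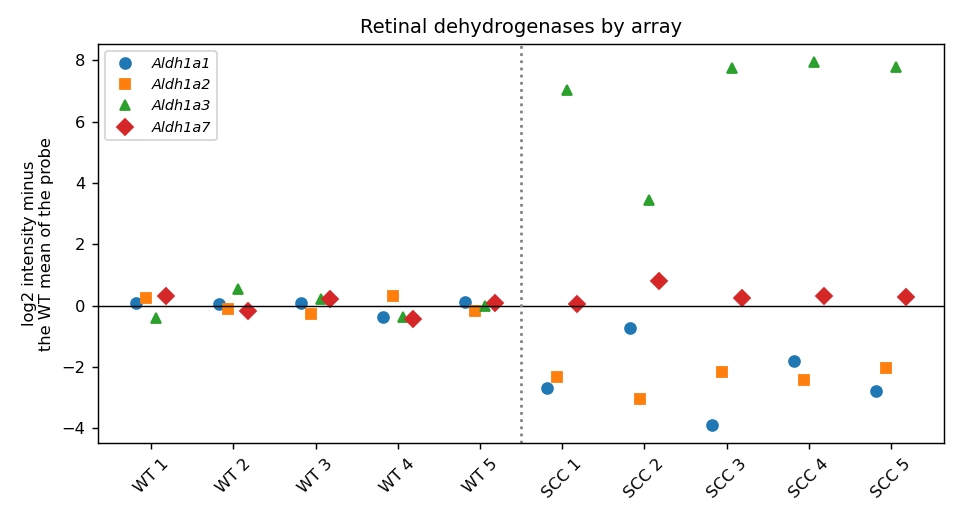
Log2 intensity minus the WT mean of the same probe on each of the 10 arrays for 4 genes listed under retinal dehydrogenases. Aldh1a3 lies far above its WT mean on all 5 tumours and least so on SCC replicate 2, Aldh1a1 and Aldh1a2 lie below it on all 5, and Aldh1a7 lies within its WT range on all tumours but SCC replicate 2.

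Of the hydroxylases that clear retinoic acid, neither was called in limma, and 1 of the 2 had an unadjusted p below 0.05. At least 53.9% of all genes, the share passing on adjusted p alone, had such a p. They were singled out after their values had been seen. Cyp26a1 was not well above background in WT and was so on 4 SCC arrays, with values of 5.37, 2.67, 5.82, 5.07 and 4.5 in SCC replicates 1 to 5 (adjusted p = 0.0752). Cyp26b1 differed by 0.038 (SE 0.35, adjusted p = 0.938).

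Among the receptors none of Rara, Rarb, Rarg and Rxra was called. Rara read 5.13, 5.12, 5.20, 5.11 and 4.75 in WT replicates 1 to 5 and 4.70, 4.68, 4.06, 4.74 and 2.45 in SCC replicates 1 to 5. All tumours lay below all WT lungs, by little on SCC replicates 1, 2 and 4 and by more on replicates 3 and 5, and SCC replicate 3 was not well above background. The dimmest probe well above background read 2.14 on SCC replicate 5 and 3.81 to 4.32 on the other arrays. The Rara value of SCC replicate 5 passed only by the former. The difference of -0.94 (SE 0.41, adjusted p = 0.0815) did not pass in limma, while the exact permutation test of this single value gave p = 0.00794. Without SCC replicate 5 it was -0.52 with an adjusted p of 0.0237, with 75th percentile scaling -0.35 (adjusted p = 0.324) and with normexp -0.15.

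Rarg, the receptor known from skin and other squamous epithelia, was modestly higher. It read 6.99, 7.21, 7.20, 7.41 and 7.11 in WT replicates 1 to 5 and 7.72, 7.26, 7.86, 8.14 and 7.83 in SCC replicates 1 to 5. Only SCC replicate 2 fell within the WT range. The difference was 0.58 (SE 0.16, adjusted p = 0.0123, exact permutation p = 0.0159), and a second probe gave 0.78 (adjusted p = 0.0056) with no overlap, both under 2-fold. On slide 2 it was 0.50 (adjusted p = 0.255 with the block).

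Rxra, a partner that retinoic acid receptors share with other nuclear receptors, gave different answers by probe. The brighter probe read 13.63, 13.64, 13.62, 13.57 and 13.75 in WT replicates 1 to 5 and 13.87, 13.63, 13.60, 13.87 and 13.80 in SCC replicates 1 to 5. The groups overlapped, with a difference of 0.11 (SE 0.088, adjusted p = 0.323). The dimmer probe was higher on every SCC array, by 0.90 (adjusted p = 0.0022). Both were well above background on all 10 arrays, and neither difference reached 2-fold.

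Rarb is a well-known direct target of retinoic acid as well as a receptor. Its log2 intensity was 10.13, 9.46, 9.80, 9.41 and 10.44 in WT replicates 1 to 5 and 9.6, 9.80, 9.66, 10.10 and 9.57 in SCC replicates 1 to 5. The tumours lay inside the WT range. The difference was -0.10 (SE 0.21, adjusted p = 0.697, exact permutation p = 0.667), and on slide 2 it was -0.75 (adjusted p = 0.159 with the block). A second, dim Rarb probe was well above background on 3 of 10 arrays and was not tested.

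Rarb was also the only one of 8 retinoid genes with a listed RefSeq promoter, 20 promoters in all, to carry a direct repeat of the kind bound by retinoic acid receptors. The search covered the 250 bases before each start, on both strands, for 2 half-sites in the same direction, each AGGTCA or GGGTCA, or else AGTTCA or GGTTCA, with 1, 2 or 5 bases between them. Such repeats with 5 bases occurred in 0.0883% of 32851 RefSeq promoters, and any of the 3 spacings in 0.426%. Of the other pathway genes 2 carried a repeat: Bco1, which cleaves beta-carotene, with 1 base between the half-sites, and Cyp26a1 with 5 on the other strand. Those of Rarb and Cyp26a1 are shown because they are the receptor and the hydroxylase whose transcription is known to follow retinoic acid. The Rarb promoter lies at chr14:16575477-16575726 on the minus strand and that of Cyp26a1 at chr19:37697558-37697807 on the plus strand (GRCm38.p6). Capitals mark the half-sites, which start 53 and 32 bases before the transcription start at the end of the sequence.
Rarb: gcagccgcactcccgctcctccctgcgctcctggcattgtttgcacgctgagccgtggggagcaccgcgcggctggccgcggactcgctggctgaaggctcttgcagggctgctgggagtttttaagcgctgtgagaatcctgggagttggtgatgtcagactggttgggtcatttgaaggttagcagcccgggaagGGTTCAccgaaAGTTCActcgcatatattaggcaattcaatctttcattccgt
Cyp26a1: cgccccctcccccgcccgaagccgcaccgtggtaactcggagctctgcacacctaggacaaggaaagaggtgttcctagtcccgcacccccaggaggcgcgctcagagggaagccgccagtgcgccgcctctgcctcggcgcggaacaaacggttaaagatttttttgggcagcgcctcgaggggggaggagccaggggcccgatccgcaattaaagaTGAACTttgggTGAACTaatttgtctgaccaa
A match of letters is a description of the sequence. For the genes beside these repeats no difference was called.

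Beyond the 9 genes, Rxrg, a retinoid X receptor of muscle and other tissues, fell by 2.37 on the log2 scale (SE 0.37, adjusted p = 0.000609), with 7.70 to 9.32 in WT and 5.19 to 6.36 in SCC. With the slide block the Rxrg call was lost (-1.74, adjusted p = 0.143). The mean of 8 cardiac muscle markers was 9.92 to 13.49 in WT and 7.96 to 9.82 in SCC, with 7 called lower, and its part was not tested. Ncoa1, a coactivator of nuclear receptors, was lower on every SCC array, with a difference of -0.85 (SE 0.098, adjusted p = 0.000103), under 2-fold. In all, 34 of 36 other retinoid pathway genes had a probe and 32 were tested, of which 8 were called higher and 3 lower. The 11 calls among 32 stand beside 24.9% of all genes, 11.6% higher and 13.4% lower. Dhrs9 and Rbp2 passed the filter through the SCC arrays alone. Among probes well above background on all 10 arrays 6 were called higher and 3 lower, beside 19.9% of all such probes called. The median difference of the 32 was 0.42.

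**Figure D4:**
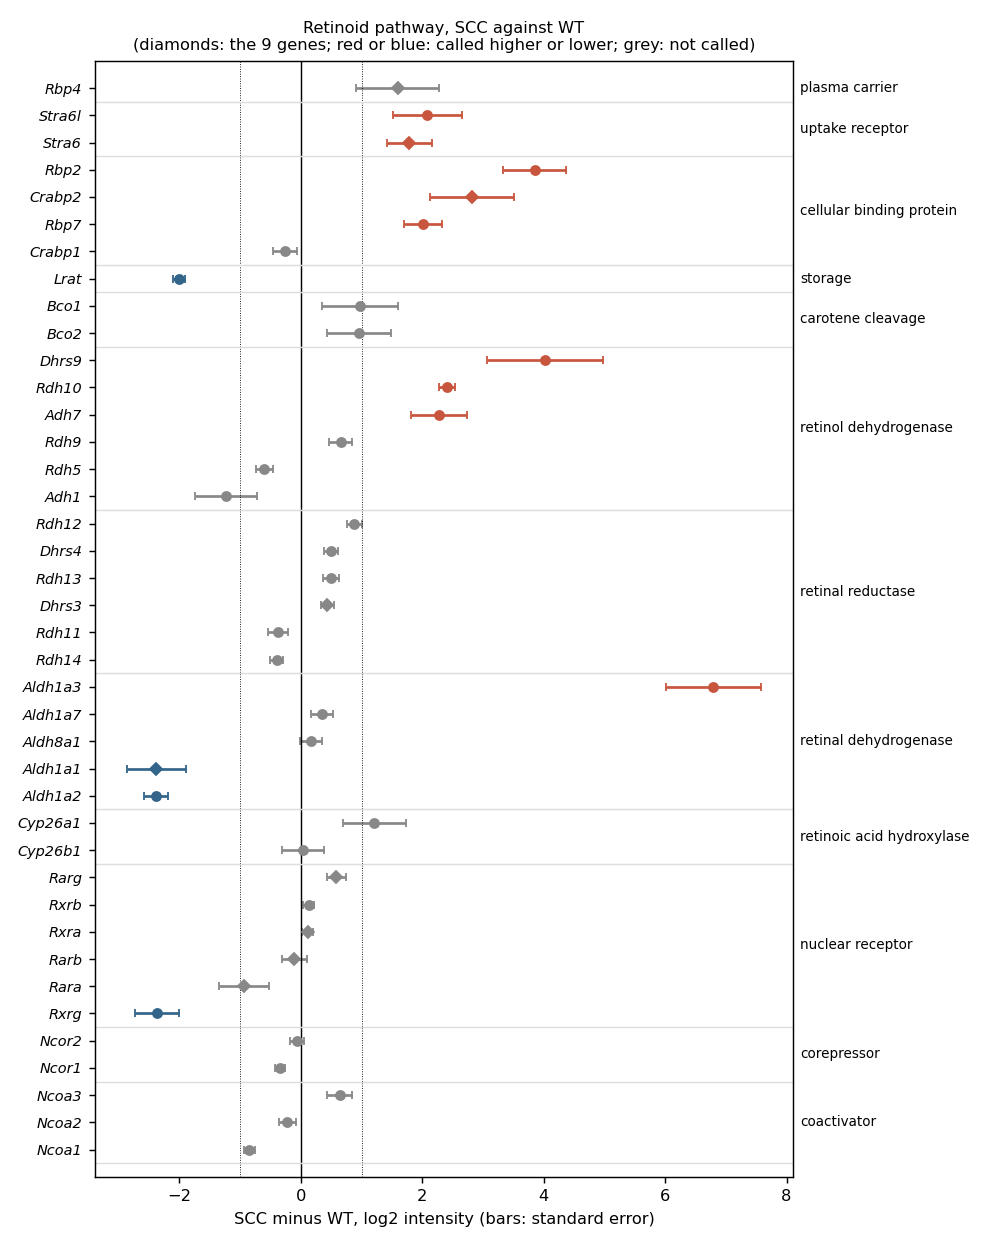
Differences (SCC minus WT, log2 intensity, with standard errors) of tested retinoid pathway genes, ordered by role as written at the right. Diamonds are the 9 genes, red and blue mark genes called higher and lower, grey marks genes not called, and dotted lines mark 2-fold. Both uptake receptors and the cellular binding proteins Crabp2, Rbp2 and Rbp7 are red, the storage enzyme Lrat is blue, and the retinal dehydrogenases hold the largest rise.

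Of the 10 retinoid genes called higher, members included, SCC replicate 2 was the lowest tumour for 9, beside 72.2% of all genes called higher. The exception was Rbp7. Without SCC replicates 2 and 5 together, 3 of the 9 genes and 13 of the 32 other pathway genes were called, while calls over all probes went from 22.9% to 26.0%.

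Of 9 listed genes known to be induced by retinoic acid, 7 were tested at their brightest probe, and limma called 0 higher and 3 lower, beside 11.6% and 13.4% of all genes. At an unadjusted p below 0.05, 2 were higher and 3 lower, beside at least the 53.9% of all genes that passed on adjusted p alone. Rarres2, the chemokine-like protein chemerin, fell by 2.60 on the log2 scale (SE 0.21, adjusted p = 1.43e-05), from 15.43 to 16.09 in WT to 12.48 to 13.62 in SCC. Asb2, a ubiquitin ligase subunit known from retinoic acid-treated leukaemia cells, fell by 1.24 (SE 0.40, adjusted p = 0.028). SCC replicate 5 was the lowest for Asb2, at 5.19 against 6.95 to 7.36 on the other tumours, and without it the difference was -0.85, under 2-fold. The Asb2 call was also lost without WT replicate 2 or 3 (adjusted p = 0.0668 and 0.0586) and, at under 2-fold, with 75th percentile scaling (-0.90) and normexp (-0.73).

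Rarres1 and Nrip1 were higher by less than 2-fold, at 0.63 (adjusted p = 0.0126) and 0.36 (adjusted p = 0.0166), and Stra8 differed by 0.37 (adjusted p = 0.325). Probes disagreed for Tgm2, tissue transglutaminase, which was looked at after its values had been seen: the brightest gave 0.035 (adjusted p = 0.875) and 2 dimmer probes were called higher, at 1.03 and 1.17. The median of the 7 genes was 0.035. With the slide block Rarres2 alone remained a call of the 3 (-3.04, adjusted p = 0.00503). Rarres2 is also made by fibroblasts and adipocytes, and the mean of 8 fibroblast markers was 13.05 to 13.30 in WT and 11.41 to 12.64 in SCC, with 5 called lower while the collagen genes Col1a1 and Col3a1 differed by 0.66 and 0.53. The part of these cells was not tested.

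The receptors that share retinoid X receptors as partners moved in both directions. Of 11 listed, 10 were tested, 2 were called higher and 2 lower, beside 11.6% and 13.4% of all genes, and their median difference was -0.029. Among probes well above background on all 10 arrays 1 was called higher and 2 lower, beside 19.9% of all such probes called. Vdr, the vitamin D receptor, rose by 1.70 (SE 0.27, adjusted p = 0.000742), from a median of 9.41 to 11.43. Ppard, known for its role in keratinocytes, was well above background on 0 WT and 4 SCC arrays and passed the filter through the latter alone. It was at least 2.13-fold higher, and the limma adjusted p of 0.00267 belongs to the measured difference of 1.87. SCC replicate 5 read 6.71 against 4.52 to 4.97 on the other tumours, and without it the bound fell under 2-fold.

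Thra, a thyroid hormone receptor, fell by 1.48 (SE 0.14, adjusted p = 3.16e-05) and Ppara, known from fatty acid oxidation, fell by 1.49 (SE 0.39, adjusted p = 0.0111). Neither Thra nor Ppara overlapped between groups. With normexp Ppara fell short of 2-fold (-0.96) and Ppard differed by 0.32 (adjusted p = 0.0752). The smallest adjusted p among the others was 0.0156 for Nr1h3, the liver X receptor alpha, at -0.53, followed by Nr1h4 at -0.59 (adjusted p = 0.302) and Thrb at -0.15 (adjusted p = 0.374). Thra alone remained a call with the slide block (-1.47, adjusted p = 0.0158).

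The genes whose pattern over the 10 arrays lay nearest to the called members were found by the root mean square difference after each gene was centred on its mean, among 15585 other tested genes. For Aldh1a1 these were Col4a5, a collagen of basement membranes (0.23), Gsta3, a glutathione transferase (0.30), and Sec14l3, a lipid-binding protein (0.30). For Stra6 they were Gjb5, a gap junction protein, Nts, the neuropeptide neurotensin, and Syt10, a synaptotagmin, all at 0.35. No gene is named for Crabp2, which was not well above background on 6 of the 10 arrays. These likenesses rest on 10 arrays in 2 groups and are a description only. Genes were centred but not scaled, so the measure matches the size of the group difference as well as the shape.

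**Figure D5:**
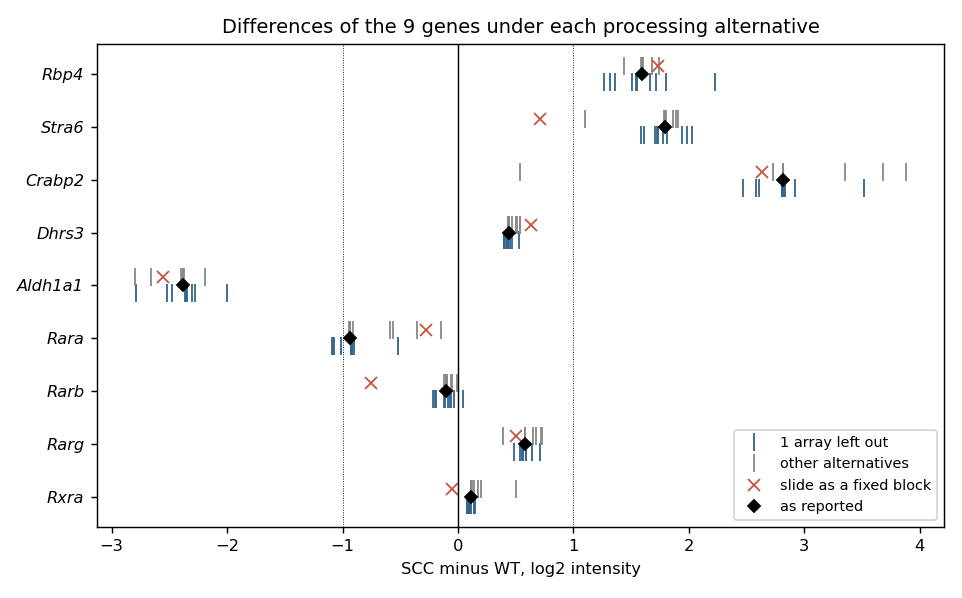
Difference (SCC minus WT, log2 intensity) of each of the 9 genes as reported (diamonds), with 1 array left out (blue ticks), with slide as a fixed block (crosses) and under the other processing alternatives (grey ticks). Aldh1a1 stays below -1 and Rbp4 above 1 in all of them, Stra6 falls to 0.71 with the slide block and Crabp2 to 0.54 with normexp, and Rarb and Rxra lie on both sides of 0.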

How the data were processed

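Total RNA of 10 samples had been hybridised to Agilent 4x44K arrays and read by the authors with Agilent Feature Extraction (version 12, per the submitters' processing notes). The deposited scanner files give for each spot a background-subtracted processed intensity on a linear scale. A deposited series table holds log2 values. Against each array's own scanner values after quantile normalization it correlated at r above 0.9999, and it served as an alternative. Groups came from the sample titles.

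Control spots and outlier flags were left out, spots of a probe were averaged as log2 intensity, and the 41174 probes were quantile-normalized, as the methods state. Probe accessions were matched to RefSeq symbols, and 28223 probes (68.5%) had 1 symbol. Probes well above background on at least 4 of the 5 arrays of a group were tested with limma 3.58.1 (R 4.3.3, two-sided) over all 10 arrays, in place of the one-way analysis of variance of the methods. Two-sided exact permutation tests (scipy 1.17.1) were run for the 9 genes and are not adjusted. The fit was first tested on simulated data. Scanner files gave no mean spot signal, so normexp used the median signal with an offset of 50. Array number, 5 per group, limits the precision.

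The 9 genes and all lists were chosen with earlier results of these data known. All 9 genes are described; of the other lists, called genes and the 3 with the smallest adjusted p among those not called are named, with exceptions stated. Genes called in these lists but not named are not reported here singly, though the counts of their lists include them. Alternatives were another scaling, normexp, the deposited matrix, no filter or a strict filter, slide as a block, the replicate number as a block, each array left out, SCC replicates 2 and 5 left out, array weights, the methods' t-test, adjusted p alone, and the mean of a gene's probes.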

Additional observations from a re-analysis of the deposited data

Results flagged for a closer look

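In 102 groups of 5 arrays examined (51 genes, list means or array measures), the highest or lowest array stood apart in 12, by its gap to the nearest array as a share of the group's range, at Dixon's 95% level. Chance gives about 1 in 20, and genes on the same arrays are not independent. SCC replicate 2 was low in 5 of these: Stra6l (share 0.918), Rbp2 (0.785), Aldh1a3 (0.796), Krt5 (0.879) and the squamous marker mean (0.9). SCC replicate 5 stood apart in 4, with low Dhrs3 (0.785), low Asb2 (0.812), high Ppard (0.793) and the high share of probes well above background (0.86). In WT, replicate 4 was low for Aldh1a1 (0.885, at 16.65 against 17.09 to 17.15) and for Dhrs9 (0.806), where no WT array was well above background, and replicate 5 was low for Rara (0.8).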

How the results depend on the processing

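With slide as a fixed block, which rests on slide 2 and its 1 WT array, limma called 0 of the 9 genes, 5 other pathway genes, 1 gene induced by retinoic acid, 1 partner receptor and 2988 probes in place of 6954. The Rxra difference turned to -0.055. As a random block, slide changed none of the list counts. Normexp left 4021 probes, 2 of the 9 genes and 2 partner receptors. On adjusted p alone 14878 probes, 5 of the 9 genes, 20 pathway genes and 5 genes induced by retinoic acid passed. Scaling to the 75th percentile moved the median of all probes from -0.090 to 0.032 and gave 3504 probes higher and 3080 lower, against 3014 and 3940, with 3 of the 9 genes called. Leaving out 1 array gave 6385 to 8135 probes and 3 of the 9 genes, or 4 without SCC replicate 4. The Rarb difference ranged from -0.21 to 0.043 with 1 array left out and turned sign without WT replicate 5. Array weights gave 4 of the 9 genes, with Rbp4 at 1.74 (adjusted p = 0.0263), and the mean of a gene's probes gave Rxra 0.50 (adjusted p = 0.00279). Over the alternatives other than single arrays left out, adjusted p ranged from 0.0263 to 0.42 for Rbp4 and from 0.00279 to 0.857 for Rxra. Causes of these shifts were not tested. Replicate numbers did not pair the arrays (correlation of deviations -0.099 to 0.0093), and the replicate block gave 6571 probes and 3 of the 9 genes. Crabp2, Dhrs9, Ppard and Cyp26a1 had no WT array well above background, which limits their folds to bounds. Following single pathway genes through the alternatives was chosen after seeing the data.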
